A study of Mus musculus with 11 samples.

Results

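Immunoglobulin heavy chain RNA was followed in bulk RNA-seq of sorted marrow stromal cells, where 81 of 24718 genes in the count table belonged to the heavy chain locus. The members were chosen by name and by count: every row named as a heavy chain variable segment (Ighv followed by a number) or as a constant region, with at least 10 reads summed over the 11 libraries. They comprised 74 variable segments and 7 constant regions (Ighm, Ighd, Igha, Ighg1, Ighg2b, Ighg2c and Ighg3), and Ighe was not analysed here. Every row of the table reached 10 reads, so no heavy chain row of the table lay just under that limit, and the members nearest to it were Ighv14-3 with 12 reads and Ighv1-4 and Ighv2-6 with 13 each. A limit of 20 reads would have kept 74 of the 81.

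The cells were tdTomato-positive mesenchymal stem and progenitor cells of female mice that carried Lepr-Cre and 1 copy of the LSL-tdTomato reporter, in which Cre under the leptin receptor gene marks the stroma around marrow vessels. Mice of the DOX4X group (n = 4, aged 8 to 10 weeks) had 4 weekly intravenous injections of doxorubicin at 5 mg/kg, mice of the DOX1X group (n = 3) had 1 injection at 10 mg/kg, and mice of the PBS group (n = 4) had 4 injections of phosphate-buffered saline. Cells were taken 8 weeks after treatment, and the labels number each library as a separate biological replicate. Doxorubicin is an anthracycline that damages DNA through topoisomerase II, and the design asks what it leaves behind in skeletal progenitors. The number of injections differs between DOX1X and PBS as well as the drug. The control labelled PBS 4 has a title that begins with the drug's abbreviation and a treatment label of PBS, so its labels disagree. The column names place all PBS libraries and DOX1X 1 and 2 on flow cell 1, and DOX1X 3 and all DOX4X libraries on flow cell 2, so DOX4X and PBS share no flow cell.

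A heavy chain is assembled in each B cell from 1 variable, 1 diversity and 1 joining segment, and all daughters of that cell carry the same choice. The assembled variable region is first joined to Ighm, with Ighd made from the same long transcript, and class switching later replaces Ighm with a downstream constant region such as Igha or an Ighg gene. Plasma cells, which live in the marrow beside stromal cells, make very large amounts of such RNA. Stromal cells are not known to rearrange the locus. In bulk RNA, fewer cells of a type and less RNA per cell cannot be told apart.

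Sequences of the segments on which the results turn are shown as aligned pairs, to let the reader judge how easily their reads could be exchanged. They are the variable exon after the last leader bases, up to 300 bases, taken from the GENCODE M21 transcripts (GRCm38, chromosome 12, minus strand), with bases that differ within a pair in capitals. Ighv5-17 is paired with its most similar member, which has 27 differences from it, so that 90.7% of aligned bases are shared.

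Ighv5-17: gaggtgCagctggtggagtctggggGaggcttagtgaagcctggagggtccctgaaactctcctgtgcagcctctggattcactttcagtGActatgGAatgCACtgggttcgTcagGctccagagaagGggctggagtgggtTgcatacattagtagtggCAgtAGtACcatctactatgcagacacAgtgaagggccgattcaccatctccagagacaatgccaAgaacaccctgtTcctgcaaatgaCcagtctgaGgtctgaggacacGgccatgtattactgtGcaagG

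Ighv5-9-1: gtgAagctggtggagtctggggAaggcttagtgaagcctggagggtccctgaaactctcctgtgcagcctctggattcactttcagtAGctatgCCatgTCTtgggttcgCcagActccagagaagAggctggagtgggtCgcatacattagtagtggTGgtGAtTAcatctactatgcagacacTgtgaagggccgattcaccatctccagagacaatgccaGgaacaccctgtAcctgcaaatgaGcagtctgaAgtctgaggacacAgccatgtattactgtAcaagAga

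Ighv10-1, which led DOX4X 3, and Ighv10-3, which led PBS 2, differ at 9 of 300 bases.

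Ighv10-1: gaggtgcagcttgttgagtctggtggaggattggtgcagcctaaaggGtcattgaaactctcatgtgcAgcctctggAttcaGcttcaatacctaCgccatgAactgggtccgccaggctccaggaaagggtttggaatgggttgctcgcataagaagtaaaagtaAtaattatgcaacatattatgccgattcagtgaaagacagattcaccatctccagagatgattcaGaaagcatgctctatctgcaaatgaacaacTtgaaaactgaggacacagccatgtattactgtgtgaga

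Ighv10-3: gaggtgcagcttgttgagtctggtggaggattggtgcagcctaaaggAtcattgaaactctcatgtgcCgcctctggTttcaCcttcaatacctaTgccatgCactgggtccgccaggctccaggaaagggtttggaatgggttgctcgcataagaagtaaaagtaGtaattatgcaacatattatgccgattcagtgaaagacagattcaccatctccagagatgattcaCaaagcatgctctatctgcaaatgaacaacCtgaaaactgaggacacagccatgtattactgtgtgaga

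Ighv11-2 is the segment known in mice from B-1 cells. Its nearest relative in the annotation is Ighv11-1, a segment not among the members, with 4 differences.

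Ighv11-2: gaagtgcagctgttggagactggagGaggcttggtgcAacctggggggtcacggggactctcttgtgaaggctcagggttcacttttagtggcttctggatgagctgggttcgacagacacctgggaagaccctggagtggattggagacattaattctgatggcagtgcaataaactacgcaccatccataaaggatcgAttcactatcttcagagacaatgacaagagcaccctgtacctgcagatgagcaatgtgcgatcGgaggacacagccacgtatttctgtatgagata

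Ighv11-1: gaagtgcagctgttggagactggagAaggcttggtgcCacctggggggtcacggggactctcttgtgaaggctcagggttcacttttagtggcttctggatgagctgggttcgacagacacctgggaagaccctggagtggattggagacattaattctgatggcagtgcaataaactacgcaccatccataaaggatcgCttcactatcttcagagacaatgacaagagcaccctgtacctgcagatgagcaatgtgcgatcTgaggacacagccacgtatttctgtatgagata

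Ighv1-58, which led PBS 1, belongs to the large Ighv1 family of the far end of the locus, and its most similar member is Ighv1-77, with 32 differences.

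Ighv1-58: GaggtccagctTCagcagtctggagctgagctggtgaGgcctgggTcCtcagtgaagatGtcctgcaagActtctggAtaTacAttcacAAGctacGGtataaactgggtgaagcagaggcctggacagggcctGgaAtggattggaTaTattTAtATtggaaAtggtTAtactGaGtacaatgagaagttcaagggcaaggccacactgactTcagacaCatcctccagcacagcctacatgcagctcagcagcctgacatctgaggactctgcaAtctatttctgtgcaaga

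Ighv1-77: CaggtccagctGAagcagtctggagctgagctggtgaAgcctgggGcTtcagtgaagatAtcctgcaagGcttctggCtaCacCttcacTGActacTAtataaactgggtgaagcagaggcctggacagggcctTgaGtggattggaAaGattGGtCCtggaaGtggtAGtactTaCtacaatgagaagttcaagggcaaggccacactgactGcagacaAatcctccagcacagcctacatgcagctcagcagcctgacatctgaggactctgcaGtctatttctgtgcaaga

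Over all 74 variable segments, the median identity to the nearest other functional segment was 95.3%, and 41 had a relative over 95% identical. In 8 segments, fewer than 50% of the 50-base stretches of the transcript occurred in no other heavy chain segment. All 74 matched the annotation, 73 of them as functional segments and Ighv1-2 as a pseudogene. The sources used here do not say how reads that fit several segments were counted, so values of single segments with close relatives are uncertain. The libraries do not mark strand, and the strand setting of the counting is not given.

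Total counts ran from 29540422 to 42784036 per library, and levels below are CPM (counts scaled to a common library size, with TMM factors) and are not divided by gene length. The sort was stromal in every library, with Cxcl12, the main chemokine of these cells, at 46059 to 59804 CPM and Lepr at 3939 to 7661 CPM. Summed levels of 14 mature B cell markers were 116.4 to 278 CPM in DOX4X, 127 to 173 CPM in DOX1X and 75.3 to 127 CPM in PBS. Of the 13 tested, 0 passed the threshold in any comparison (the quasi-likelihood test of edgeR with a threshold of 0.05 on the adjusted p). At an unadjusted p under 0.05, 12 were higher in DOX4X against PBS, 2 in DOX1X against PBS and 0 in DOX4X against DOX1X. Of all 17838 genes tested, 1071, 610 and 398 were higher at that p, in the same order of comparisons. Lower ones numbered 1400, 668 and 380.

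Heavy chain RNA was present in all 11 libraries, and 2 libraries stood apart with little of it. The 74 variable segments summed to 10.9, 118, 37.9 and 46.7 CPM in DOX4X 1 to 4, to 109, 82.2 and 81.2 CPM in DOX1X 1 to 3, and to 66.8, 64.4, 87.2 and 5.84 CPM in PBS 1 to 4. The constant regions summed to 134, 741, 193 and 336 CPM in DOX4X, to 633, 695 and 505 CPM in DOX1X, and to 503, 313, 561 and 64.9 CPM in PBS. DOX4X 1 and PBS 4 were lowest in both sums, and the groups overlapped. Group means of the variable sum were 53.3 CPM ± 45.6 (SD, n = 4) in DOX4X, 90.8 ± 15.7 (n = 3) in DOX1X and 56.1 ± 35.0 (n = 4) in PBS, with the widest spread relative to its mean in DOX4X.

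Jchain, the joining chain of secreted IgM and IgA made by plasma cells, separated the same 2 libraries. It stood at 0, 117, 58.8 and 68.7 CPM in DOX4X 1 to 4, at 134, 108 and 106 CPM in DOX1X and at 62.5, 51.5, 76.3 and 0.133 CPM in PBS. Igkc, the kappa light chain constant region, was also lowest there, at 33.8 CPM in DOX4X 1 and 19.9 CPM in PBS 4, against 162 to 480 CPM in the other 9 libraries. Cd79a, a signalling chain of the B cell receptor, did not follow that split and stood at 24.5 CPM in DOX4X 1 and 14.6 CPM in PBS 4, against 10.9 to 65.1 CPM in the others. Of the other plasma cell markers, Mzb1, a chaperone of IgM assembly, lay at 0.033 to 0.455 CPM and Tnfrsf17, the plasma cell receptor for BAFF and APRIL, at 0 to 0.269 CPM, whereas Xbp1 (282 to 440 CPM) and Sdc1 (346 to 528 CPM) were abundant in every library. The 14 plasma cell markers summed to 1107 to 1409 CPM in DOX4X, 1251 to 1379 CPM in DOX1X and 1214 to 1446 CPM in PBS. Most of that sum in every library was Xbp1, Sdc1 and a further marker, Txndc5 (314 to 452 CPM). In DOX4X 1, where Jchain was at 0, they stood at 345, 346 and 317 CPM. The sum, which includes Jchain, was lowest in DOX4X 1 and PBS 4, at 1107 and 1214 CPM. In the other 9 libraries it was 1240 to 1446 CPM. Of 13 markers tested, 0 passed the threshold in any comparison (4 higher and 2 lower at an unadjusted p under 0.05 in DOX4X against PBS). The part of other cells in the differences below was not tested.

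Among the constant regions, Ighm was found in every library, while abundant RNA of a switched region was found in some libraries and not in others. Ighm, the first constant region used, stood at 132, 360.0, 89.9 and 273 CPM in DOX4X, at 177, 693 and 262 CPM in DOX1X and at 502, 61.3, 171 and 63.1 CPM in PBS. The groups overlapped, and the log2 fold change was 0.10 (SE 0.69) for DOX4X against PBS, 0.92 (SE 0.74) for DOX1X against PBS and -0.82 (SE 0.74) for DOX4X against DOX1X, with edgeR's adjusted p of 0.970, 0.784 and 1.00. Ighd, the receptor isotype of mature naive B cells, was low throughout. It stood at 1.98, 3.07, 1.26 and 1.53 CPM in DOX4X, at 3.45, 1.97 and 0.710 CPM in DOX1X and at 0.203, 1.94, 1.39 and 1.80 CPM in PBS, with edgeR's adjusted p of 0.743, 0.837 and 1.00 in the same order of comparisons.

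Igha, the constant region of the mucosal antibody class, stood at 0, 276, 102 and 59.9 CPM in DOX4X, at 329, 0 and 98.9 CPM in DOX1X and at 0, 120, 45.1 and 0 CPM in PBS. Ighg1 was at 0 in all 4 DOX4X libraries, at 124, 0 and 144 CPM in DOX1X and at 0.025, 130, 261 and 0 CPM in PBS. Against 3 reads per library as the limit of detection, the DOX4X mean was at least 1142-fold lower than the PBS mean and at least 1042-fold lower than the DOX1X mean. Both of those groups also held a library at 0, so the groups overlapped and Ighg1 did not pass (edgeR's adjusted p = 0.235 against PBS and 0.909 against DOX1X). Ighg2b stood at 0, 1.81, 0 and 0.463 CPM in DOX4X, at 0.171, 0 and 0.394 CPM in DOX1X and at 0, 0, 82.8 and 0 CPM in PBS, so it was abundant in PBS 3 alone. Ighg2c stood at 0, 98.4, 0 and 0.272 CPM in DOX4X, at 0, 0 and 0.079 CPM in DOX1X and at 0, 0, 0.032 and 0 CPM in PBS. It was abundant in DOX4X 2 alone. Ighg3 stood at 0, 0.761, 0.150 and 0 CPM in DOX4X, at 0.147, 0 and 0.105 CPM in DOX1X and at 0.406, 0, 0.194 and 0 CPM in PBS, and was abundant in none.

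The switched share of constant region reads, not corrected for length, differed between mice of a group more than between groups. It was 0%, 51.0%, 52.9% and 18.1% in DOX4X 1 to 4, 71.6%, 0% and 48.1% in DOX1X 1 to 3, and 0.0858%, 79.8%, 69.4% and 0% in PBS 1 to 4. Counting error was small beside this: the widest 95% Wilson interval, which covers counting error only, was 51.6% to 54.1% in DOX4X 3. Libraries with no switched read allowed shares of up to 0.0788% (DOX4X 1), 0.0168% (DOX1X 2) and 0.197% (PBS 4) by the same interval. DOX1X 2 and PBS 1 combined a high Ighm with almost no switched RNA and with Jchain at 108 and 62.5 CPM, whereas DOX4X 1 and PBS 4 had no switched read and Jchain at or near 0, with Ighm at 132 and 63.1 CPM, inside the range of the other libraries. Group means of the share were 30.5% ± 25.8 (SD, n = 4) in DOX4X, 39.9% ± 36.5 (n = 3) in DOX1X and 37.3% ± 43.3 (n = 4) in PBS.

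**Figure D1:**
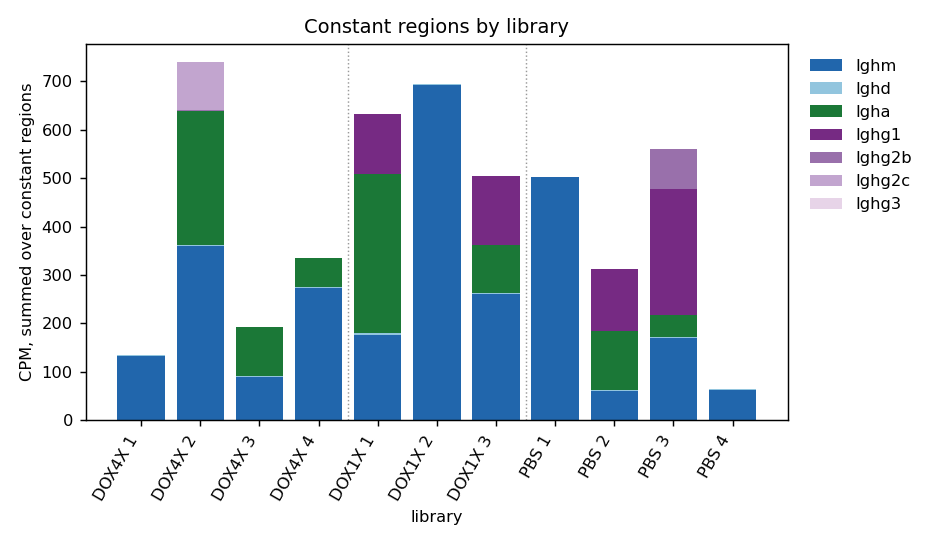
Summed level of the 7 constant regions (vertical axis, CPM) in each library (horizontal axis), with each region in its own colour and dotted lines between the groups. Ighg1 is at 0 in all 4 DOX4X libraries, in DOX1X 2 and in PBS 4 and at 0.025 CPM in PBS 1, and DOX4X 1 and PBS 4 show little besides Ighm at 132 and 63.1 CPM.

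Each library with abundant heavy chain RNA was led by its own variable segment. In DOX4X, Ighv9-3 led DOX4X 1 with 6.08% of variable segment reads, Ighv1-64 led DOX4X 2 with 18.1%, Ighv10-1 led DOX4X 3 with 66.4% and Ighv2-2 led DOX4X 4 with 22.5%. In DOX1X, the leading segments were Ighv1-39 with 17.2%, Ighv11-2 with 32.2% and Ighv8-12 with 27.9%. In PBS, they were Ighv1-58 with 78.0%, Ighv10-3 with 60.4%, Ighv1-80 with 28.6% and Ighv9-3 with 9.71%. The 11 libraries thus had 10 different leading segments, and only the 2 libraries with Jchain at or near 0 shared one.

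In 3 libraries, 2 segments made up most of the variable reads. PBS 1 held 2055 reads of Ighv1-58 and 407 of Ighv14-4 among 2635, PBS 2 held 1166 reads of Ighv10-3 and 669 of Ighv1-12 among 1930, and DOX4X 3 held 837 reads of Ighv10-1 and 199 of Ighv1-75 among 1260. The 3 most abundant segments together took 94.1% of variable reads in PBS 1, 95.9% in PBS 2 and 83.7% in DOX4X 3, against 42.7% to 63.2% in the other 6 libraries with Jchain above 50 CPM. They took 14.7% in DOX4X 1 and 22.9% in PBS 4, which rest on 395 and 175 variable reads. The effective number of segments, the inverse of the summed squared shares, was 39.3, 8.30, 2.14 and 6.68 in DOX4X 1 to 4, 9.91, 5.77 and 6.84 in DOX1X 1 to 3, and 1.58, 2.06, 6.90 and 24.5 in PBS 1 to 4. DOX4X 1 and PBS 4 thus had the most even use of segments despite the fewest reads, and the other libraries of those groups lay under 9. The number of segments with at least 1 read was 49 to 69 in DOX4X, 54 to 63 in DOX1X and 37 to 61 in PBS.

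**Figure D2:**
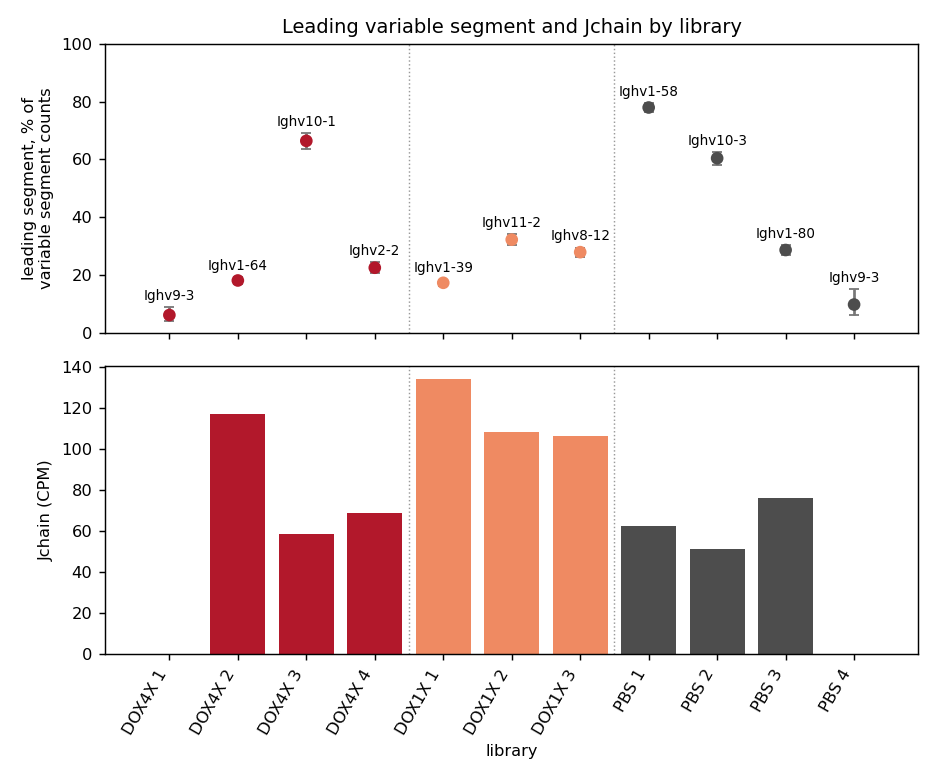
The upper panel shows the share of variable segment reads taken by the leading segment (percent, with 95% Wilson intervals for counting error) in each library, with its name. The lower panel shows Jchain (CPM): DOX4X 1 and PBS 4, where Jchain is 0 and 0.133 CPM, have the lowest leading shares, 6.08% and 9.71%.

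The leading light chain segment was also at its largest share in the same 3 libraries, with a share below that of the heavy chain leader in DOX4X 3 and PBS 1 and near it in PBS 2. Igkv4-68 took 52.0% of light chain variable CPM in DOX4X 3, Igkv4-53 took 54.8% in PBS 1 and Igkv6-15 took 61.1% in PBS 2, and the leading light chain segment took 13.7% to 35.5% in the other 8. Iglv1 led in DOX4X 1, DOX4X 2, DOX1X 1 and PBS 4.

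Of the 74 variable segments, 35 (47.3%) had over 50% of their level, summed over the 11 libraries, in 1 library, and 13 (17.6%) had over 90%. The same held for 39 of 84 light chain variable segments (46.4%) and for 415 of all 24718 genes (1.68%), while 0 of 14 mature B cell, 0 of 16 early B lineage and 0 of 14 plasma cell markers were so concentrated. Low counts also concentrate a gene by chance, and segments were not matched on level with the other genes. Ighv1-58 had 99.2% of its level in PBS 1. It stood at 0.248, 0.117, 0 and 0 CPM in DOX4X, at 0, 0 and 0.079 CPM in DOX1X and at 52.1, 0, 0 and 0 CPM in PBS. Ighv3-5 had 99.1% in DOX4X 4 (5.99 CPM) and Ighv1-39 had 97.8% in DOX1X 1. The level of Ighv1-39 stood at 0, 0.146, 0.030 and 0.027 CPM in DOX4X, at 18.8, 0.030 and 0.053 CPM in DOX1X and at 0, 0, 0.129 and 0 CPM in PBS, with DOX1X 1 as the 1 high library. DOX4X 2 held 97.3% of Ighv1-22 (19.3 CPM) and 96.0% of Ighv1-54 (21.0 CPM), and DOX1X 3 held 94.9% of Ighv8-12. Ighv8-12 stood at 0.248, 0.410, 0 and 0.218 CPM in DOX4X, at 0.147, 0.061 and 22.6 CPM in DOX1X and at 0, 0.033, 0.065 and 0.033 CPM in PBS. Ighv1-80, the leader of PBS 3, stood at 0.138, 0.936, 0 and 0.327 CPM in DOX4X, at 0.147, 0.182 and 3.47 CPM in DOX1X and at 0.025, 0, 25.0 and 0.067 CPM in PBS, so DOX1X 3 was the library nearest to PBS 3. The libraries holding over 50% of a segment were DOX1X 1 for 8 segments, PBS 3, DOX1X 3 and DOX4X 2 for 5 each, DOX1X 2 and DOX4X 4 for 4 each, PBS 2 for 2, and PBS 1 and DOX4X 3 for 1 each, with none in DOX4X 1 or PBS 4.

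**Figure D3:**
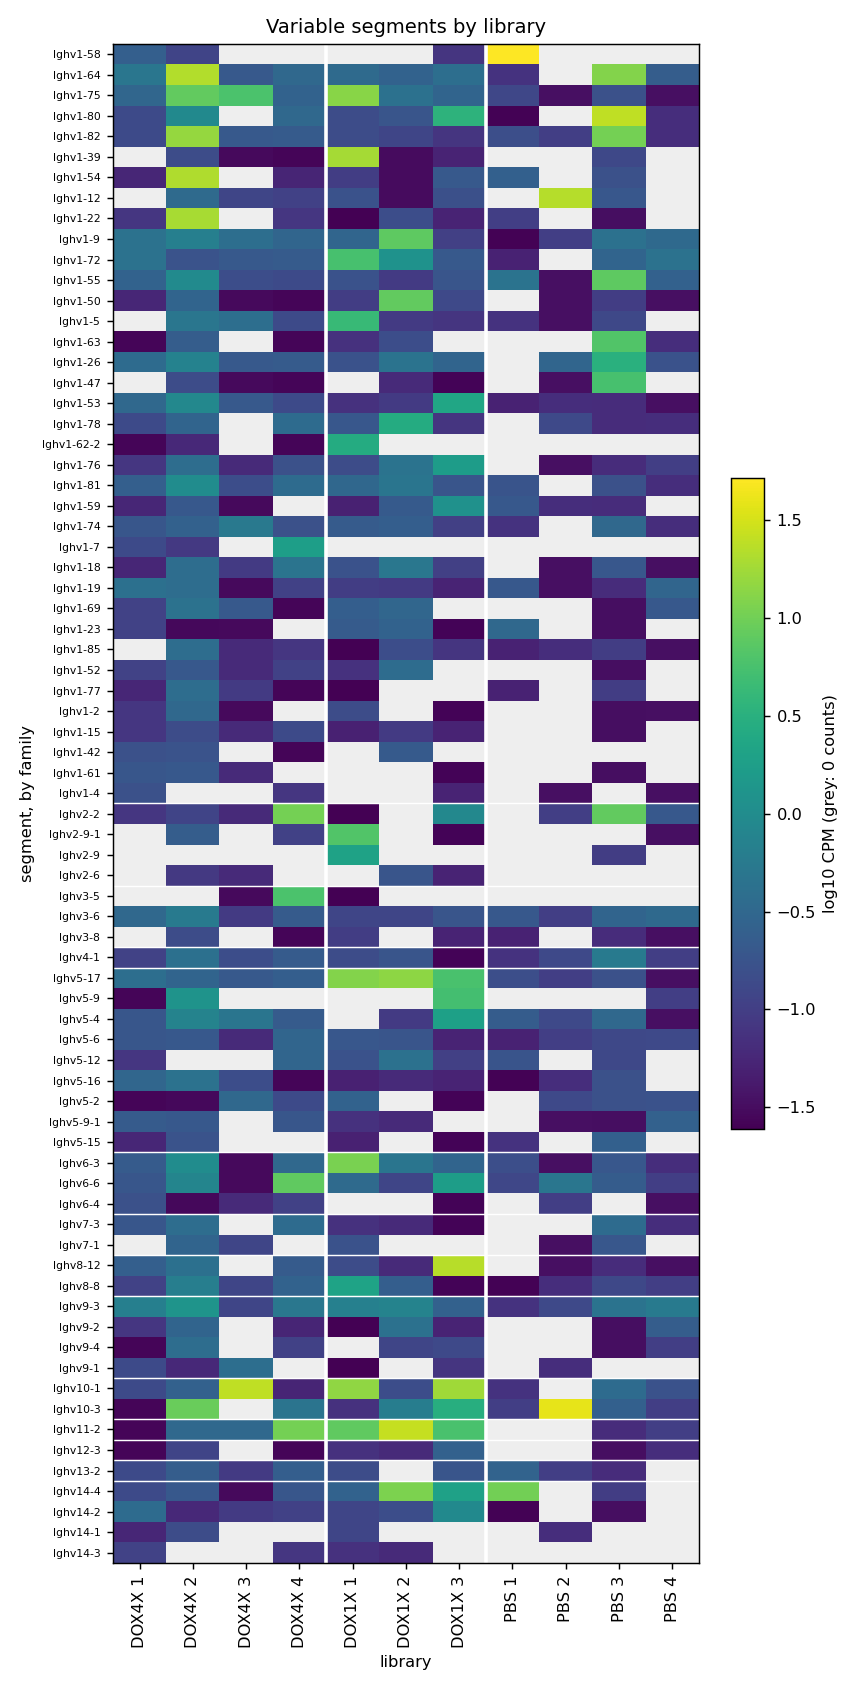
Level of each of the 74 variable segments (rows, grouped by family from Ighv1 down to Ighv14 and by total count within a family) in each library (columns), as log10 CPM with 0 counts in grey. In 18 rows a single library is above 5 CPM, as for Ighv1-58 in PBS 1 at 52.1 CPM, and the Ighv5-17 row is bright in the 3 DOX1X libraries.

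A level of 5 CPM, chosen after seeing the values, was passed by 27 of the 74 segments in at least 1 library. Of these, 18 passed it in 1 library, 5 in 2 libraries (Ighv10-3, Ighv1-64, Ighv1-82, Ighv14-4 and Ighv2-2) and 4 in 3 or more (Ighv5-17, Ighv11-2, Ighv10-1 and Ighv1-75). By library, the number was 0, 6, 2 and 4 in DOX4X 1 to 4, 8, 5 and 5 in DOX1X 1 to 3, and 2, 2, 7 and 0 in PBS 1 to 4. Of those in 2 libraries, 4 had 1 in DOX4X and 1 in PBS. Ighv1-64 stood at 0.496, 21.2, 0.211 and 0.327 CPM in DOX4X, at 0.343, 0.273 and 0.394 CPM in DOX1X and at 0.076, 0, 12.6 and 0.233 CPM in PBS. Ighv1-82 stood at 0.138, 15.5, 0.211 and 0.218 CPM in DOX4X, at 0.147, 0.121 and 0.079 CPM in DOX1X and at 0.152, 0.100, 10.4 and 0.067 CPM in PBS. Both were high in DOX4X 2 and PBS 3 and low in DOX1X. Ighv2-2 stood at 0.083, 0.117, 0.060 and 10.5 CPM in DOX4X, at 0.024, 0 and 0.867 CPM in DOX1X and at 0, 0.100, 8.25 and 0.200 CPM in PBS, high in DOX4X 4 and PBS 3. Ighv10-3 stood at 0.028, 8.95, 0 and 0.463 CPM in DOX4X, at 0.073, 0.637 and 3.02 CPM in DOX1X and at 0.101, 38.9, 0.259 and 0.100 CPM in PBS, high in DOX4X 2 and PBS 2. Ighv9-3, the leader of DOX4X 1 and PBS 4, stayed under 2 CPM throughout and stood at 0.661, 1.29, 0.120 and 0.518 CPM in DOX4X, at 0.685, 0.758 and 0.263 CPM in DOX1X and at 0.076, 0.133, 0.453 and 0.567 CPM in PBS.

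Ighv5-17 and Ighv11-2 were above 5 CPM in every DOX1X mouse, and of these Ighv5-17 was also low in every DOX4X and PBS mouse. Ighv5-17 is a functional segment of the Ighv5 family, a family of the end of the locus nearest to the diversity segments, and was the 28th of 183 variable segments counted from that end in the RefSeq annotation. It stood at 0.385, 0.293, 0.211 and 0.245 CPM in DOX4X, at 12.7, 14.0 and 5.81 CPM in DOX1X and at 0.152, 0.100, 0.162 and 0.033 CPM in PBS. In reads, this was 14, 10, 7 and 9 in DOX4X, 521, 463 and 221 in DOX1X and 6, 3, 5 and 1 in PBS. The 3 DOX1X libraries lay above all 8 others, and DOX4X lay slightly above PBS without overlap.

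Of the 31 members that passed the low-count filter (26 variable segments and 5 constant regions), a filter that a member could pass through the group where it was high, Ighv5-17 was the 1 called in DOX1X against PBS and in DOX4X against DOX1X. It was also the 1 gene of 17838 called in each of these comparisons, which is 0.00561% of genes tested. It rose in DOX1X against PBS by 6.53 on the log2 scale (SE 0.45, edgeR's adjusted p = 1.29e-04), with means of 10.9 CPM ± 4.43 (SD, n = 3) in DOX1X and 0.112 ± 0.059 (n = 4) in PBS. It fell in DOX4X against DOX1X, with a log2 fold change of -5.24 (SE 0.40, edgeR's adjusted p = 4.93e-04) and a DOX4X mean of 0.283 CPM ± 0.076 (n = 4). These comparisons share the DOX1X libraries and are not separate evidence. For DOX4X against PBS the log2 fold change was 1.29 (SE 0.46, edgeR's adjusted p = 0.257).

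Within flow cell 1, DOX1X 1 and 2 against PBS gave 6.83 (edgeR's adjusted p = 0.0018). Within flow cell 2, DOX4X against DOX1X 3 alone gave -4.33 and did not pass (edgeR's adjusted p = 0.0706). Without PBS 4 and DOX4X 1, the libraries with Jchain at or near 0, the values were 6.25 for DOX1X against PBS and -5.42 for DOX4X against DOX1X (edgeR's adjusted p = 8.93e-04 and 0.0023). Summed mature B cell markers in DOX1X, at 127 to 173 CPM, overlapped with DOX4X at 116.4 to 278 CPM and met PBS only at its highest, 127 CPM, and Cd79a in DOX1X (20.1 to 32.5 CPM) overlapped with DOX4X (21.4 to 65.1 CPM) and PBS (10.9 to 21.8 CPM). Some markers of other marrow cells were higher at an unadjusted p under 0.05. Summed neutrophil markers stood at 232 to 946 CPM in DOX4X, 216 to 813 CPM in DOX1X and 159 to 573 CPM in PBS. At that p, 5 of 9 were higher in DOX1X and 0 of 9 in DOX4X against PBS. Summed erythroid markers stood at 271 to 584 CPM in DOX4X, 223 to 514 CPM in DOX1X and 129 to 304 CPM in PBS. At that p, 6 of 8 were higher in DOX1X and 7 of 8 in DOX4X against PBS. Among 9 macrophage markers, 1 was higher in DOX1X against PBS, and 1 was higher and 1 lower in DOX4X against PBS. Among all 17838 genes tested, 610 were higher in DOX1X and 1071 in DOX4X against PBS. The neutrophil and erythroid sums overlapped between the groups, and 0 of these markers passed edgeR's threshold. The part of other cells in the rise of Ighv5-17 was not tested.

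Ighv5-9-1, the member most similar to Ighv5-17 and printed beside it above, stayed low where Ighv5-17 was high. It lay at 0.073, 0.061 and 0 CPM in DOX1X, and Ighv5-16, its neighbour on the diversity side, at 0.049, 0.061 and 0.053 CPM. In Ighv5-17, 85.1% of 50-base stretches and 100% of 100-base stretches of the transcript occurred in no other heavy chain segment. Within the family, Ighv5-9 and Ighv5-4 were highest in DOX1X 3, at 5.23 and 1.89 CPM, where Ighv5-17 stood at 5.81 CPM. The 9 members of the Ighv5 family thus summed to 13.6, 14.9 and 13.2 CPM in DOX1X, against 1.49, 3.36, 1.23 and 1.42 CPM in DOX4X and 0.710, 0.567, 1.36 and 0.734 CPM in PBS, with Ighv5-17 the largest in each DOX1X library.

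**Figure D4:**
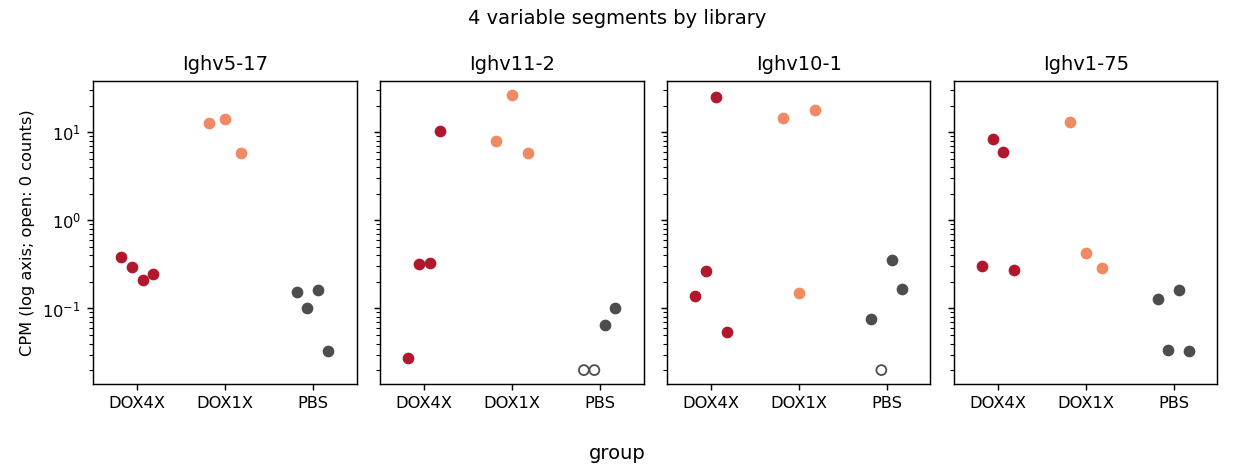
Level of the 4 segments above 5 CPM in 3 or more libraries (CPM, log axis), 1 point per library, with open points for 0 counts drawn at the foot of the axis. For Ighv5-17 the 3 DOX1X points lie between 5.81 and 14.0 CPM, above every DOX4X and PBS point, while the other 3 segments overlap between DOX4X and DOX1X.

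Ighv11-2, the B-1 cell segment, was the member with the largest log2 fold change in DOX1X against PBS, and it was less regular. It stood at 0.028, 0.322, 0.331 and 10.4 CPM in DOX4X, at 7.93, 26.5 and 5.76 CPM in DOX1X and at 0, 0, 0.065 and 0.100 CPM in PBS. DOX1X lay above PBS without overlap, with a log2 fold change of 8.30 (SE 1.81, edgeR's adjusted p = 0.515), which did not pass. For DOX4X against PBS it was 6.04 (SE 1.77, edgeR's adjusted p = 0.186), and DOX4X 4 alone was in the DOX1X range. Ighv11-2 passed in DOX1X against PBS within flow cell 1 (8.66, edgeR's adjusted p = 0.036) and without DOX4X 4 (8.30, edgeR's adjusted p = 0.030). DOX4X 4 is in neither group of that comparison, and the fold change was 8.30 with and without it. It enters only through the spread, which the fit estimates over all libraries. Ighv12-3, the other segment best known in mice from B-1 cells, reached at most 0.117 CPM in DOX4X, 0.263 CPM in DOX1X and 0.067 CPM in PBS.

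Ighv10-1 and Ighv1-75 were high in some mice of both drug groups and in none of the PBS mice. Ighv10-1 stood at 0.138, 0.263, 25.2 and 0.054 CPM in DOX4X, at 14.6, 0.152 and 17.7 CPM in DOX1X and at 0.076, 0, 0.356 and 0.167 CPM in PBS. Ighv1-75 stood at 0.303, 8.37, 5.99 and 0.272 CPM in DOX4X, at 13.2, 0.424 and 0.289 CPM in DOX1X and at 0.127, 0.033, 0.162 and 0.033 CPM in PBS. For Ighv1-75 both drug groups lay above PBS without overlap, by 5.30 (SE 1.61) in DOX4X and 5.62 (SE 1.65) in DOX1X on the log2 scale, whereas Ighv10-1 overlapped. Neither passed in any comparison (edgeR's adjusted p of 0.196 for Ighv1-75 and 0.271 for Ighv10-1 in DOX4X against PBS, and 0.594 and 0.601 in DOX1X against PBS).

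In DOX4X against PBS, 0 of the 31 tested members passed, where 26 of 17838 genes did (0.146%). At an unadjusted p under 0.05, 7 members were higher and 3 lower with edgeR, against 1071 higher and 1400 lower of the 17838 genes. DESeq2 called 3 members (Ighg1, Ighv1-75 and Ighv11-2) and 590 genes in all. Of the higher members, Ighv11-2 and Ighv6-6 owed their DOX4X level mainly to DOX4X 4, Ighv10-1 to DOX4X 3, and Ighv1-75 to DOX4X 2 and 3. The others, Ighv5-17, Ighv1-53 and Ighv1-81, reached at most 1.02 CPM in DOX4X. The 3 lower ones owed their PBS level to 1 or 2 mice: Ighg1 to PBS 2 and 3, Ighg2b to PBS 3, and Ighv14-4 to PBS 1. The median log2 fold change over the 31 was 1.09, against 0.01 over all genes tested. Because a member could pass the low-count filter through the group where it was high, this median is only a description. Over all 81 members, 6 (7.41%) had every DOX4X library above every PBS library, against 2.8% of all genes, and 0 had every one below, against 3.67%. They were Ighv1-15, Ighv1-52, Ighv1-53, Ighv1-75, Ighv14-2 and Ighv5-17, all but Ighv1-75 under 1 CPM in each library of both groups.

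In DOX1X against PBS, 11 of the 31 members were higher and 2 lower at an unadjusted p under 0.05. Of all 17838 genes tested, 610 were higher and 668 lower at that p. The median log2 fold change over the 31 was 1.61, against 0.01 over all genes tested. A member could pass the low-count filter through the group where it was high, so these counts and this median are only a description. Some segments high in 1 mouse, such as Ighv1-58 in PBS 1 and Ighv1-39 in DOX1X 1, were not tested. Every DOX1X library lay above every PBS library for 10 of 81 members (12.3%, against 3.34% of all genes) and below for 0 (against 3.19%). The 10 were Ighv5-17, Ighv11-2, Ighv1-75, Ighv6-3, Ighv1-76, Ighv1-50, Ighv1-53, Ighv1-81, Ighv14-2 and Ighv1-15. Ighv6-3 stood at 0.220, 1.02, 0.030 and 0.327 CPM in DOX4X, at 11.1, 0.485 and 0.289 CPM in DOX1X and at 0.152, 0.033, 0.194 and 0.067 CPM in PBS, with a log2 fold change of 5.09 (SE 1.31, edgeR's adjusted p = 0.515). Ighv1-76 stood at 0.083, 0.380, 0.060 and 0.163 CPM in DOX4X, at 0.147, 0.455 and 1.68 CPM in DOX1X and at 0, 0.033, 0.065 and 0.100 CPM in PBS, with 3.91 (SE 0.99) and the same adjusted p. Ighv1-72 stood at 0.440, 0.176, 0.211 and 0.218 CPM in DOX4X, at 5.68, 1.21 and 0.210 CPM in DOX1X and at 0.051, 0, 0.291 and 0.434 CPM in PBS, and overlapped. Of the 10, Ighv1-75, Ighv6-3, Ighv1-76, Ighv1-50 and Ighv1-53 exceeded 1 CPM in 1 of the 3 DOX1X libraries, whereas Ighv5-17 and Ighv11-2 did so in all 3.

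In DOX4X against DOX1X, 0 of the 31 members were higher and 7 lower at an unadjusted p under 0.05. Of all 17838 genes tested, 398 were higher and 380 lower at that p. The median log2 fold change over the 31 was -0.38, against 0.00 over all genes tested. It is only a description, for the same reason of the low-count filter. The groups did not overlap for 2 higher members (2.47%, against 3.04% of all genes), Ighv1-77 and Ighv6-4, which stayed at or under 0.380 CPM, and for 2 lower ones (2.47%, against 2.76%), Ighv14-4 and Ighv5-17. Ighv14-4 stood at 0.138, 0.205, 0.030 and 0.191 CPM in DOX4X, at 0.269, 11.4 and 1.95 CPM in DOX1X and at 10.3, 0, 0.097 and 0 CPM in PBS, so PBS 1 lay in the DOX1X range (log2 fold change -4.96, SE 1.90, edgeR's adjusted p = 1.00 for DOX4X against DOX1X).

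**Figure D5:**
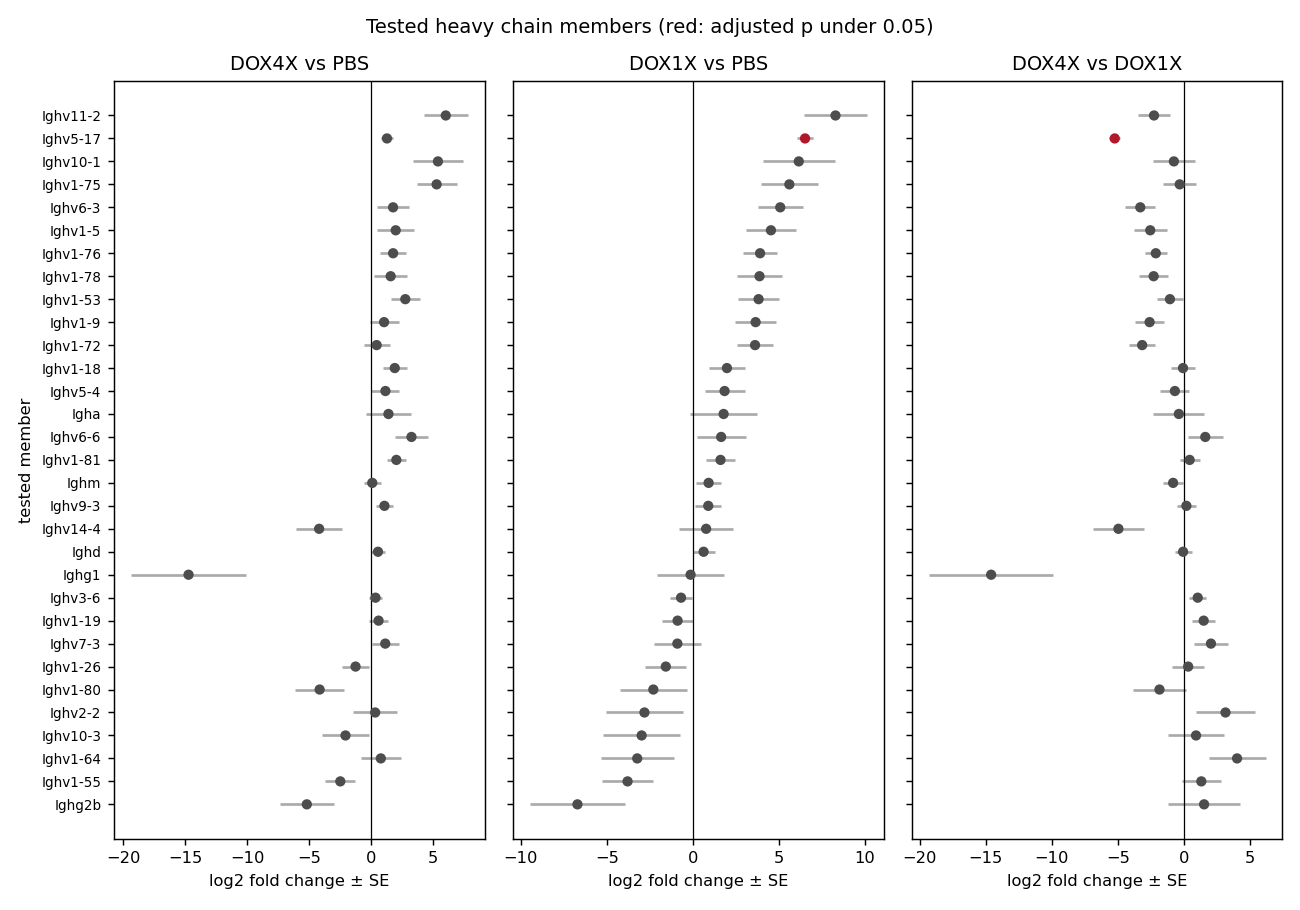
Log2 fold change with its standard error (horizontal axis) of each of the 31 tested members (rows, ordered by DOX1X against PBS) in the 3 comparisons, with members past the threshold in red. Ighv5-17 is the 1 red point in DOX1X against PBS (6.53) and in DOX4X against DOX1X (-5.24), and DOX4X against PBS has none.

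By family, Ighv5 was the only one of the 14 families whose summed level in 1 group, DOX1X, did not overlap with either other group. Ighv1, the largest family with 37 members and 50.2% of variable reads, summed to 29.7 CPM ± 44.8 (SD, n = 4) in DOX4X, 28.6 ± 18.6 (n = 3) in DOX1X and 38.7 ± 31.8 (n = 4) in PBS. Ighv10, with 2 members and 15.1% of reads, averaged 8.77 CPM ± 11.7 in DOX4X, 12.1 ± 10.2 in DOX1X and 9.99 ± 19.3 in PBS, and the spread was as large as the means. Ighv8 averaged 0.506 CPM ± 0.396 in DOX4X, 8.40 ± 12.4 in DOX1X and 0.113 ± 0.070 in PBS, its DOX1X mean coming from Ighv8-12 in DOX1X 3. Ighv9, the family of the segment that led DOX4X 1 and PBS 4, was low, at 1.03 CPM ± 0.679 in DOX4X, 0.854 ± 0.403 in DOX1X and 0.424 ± 0.368 in PBS.

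Genes of the pathway outside the locus showed no call with edgeR, though some were higher at an unadjusted p under 0.05. Of 15 genes of V(D)J recombination and its regulators, 0 passed in any of the 3 comparisons, and at that unadjusted p 4 were higher and 0 lower in DOX4X against PBS, and 2 higher and 0 lower in DOX1X against PBS. Among all 17838 genes tested, 1071 were higher and 1400 lower in DOX4X against PBS. In DOX1X against PBS, 610 were higher and 668 lower. Pax5, the factor that fixes B cell identity, stood at 1.71 to 4.36 CPM in DOX4X, 1.29 to 2.46 CPM in DOX1X and 0.304 to 1.68 CPM in PBS. Dntt, the polymerase that adds bases at the joints, stood at 2.89 to 4.69 CPM in DOX4X, 1.79 to 8.27 CPM in DOX1X and 0.634 to 2.40 CPM in PBS. Xrcc6, a subunit of the Ku end-joining complex, stood at 35.0 to 45.1 CPM in DOX4X, 30.5 to 39.4 CPM in DOX1X and 27.8 to 34.9 CPM in PBS. For these 3 genes, DOX4X lay above PBS without overlap, as it did for 2.8% of all genes (edgeR's adjusted p of 0.227 for Pax5, 0.290 for Dntt and 0.234 for Xrcc6). For Xrcc6 the groups almost touched, with DOX4X 3 at 34.95 CPM and PBS 2 at 34.94 CPM. Rag1, the recombinase that cuts the segments, stood at 3.33 to 9.80 CPM in DOX4X, 2.81 to 4.31 CPM in DOX1X and 1.47 to 3.43 CPM in PBS, and overlapped.

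Of 10 genes of the surrogate light chain and receptor signalling, 0 passed, but all 10 had a higher fitted level in both drug groups than in PBS. At an unadjusted p under 0.05, 5 were higher in DOX4X against PBS (median log2 fold change over the 10 of 1.04) and 4 in DOX1X against PBS (0.82), with 0 lower. Vpreb3, of the pre-B cell receptor pathway, stood at 8.84 to 28.9 CPM in DOX4X, 8.96 to 11.9 CPM in DOX1X and 3.35 to 9.94 CPM in PBS, and overlapped. Of 7 tested germinal centre and class switch genes, 0 passed and 0 reached an unadjusted p under 0.05 in any comparison. Of 30 tested light chain variable segments 0 passed, with 8 higher and 4 lower at an unadjusted p under 0.05 in DOX4X against PBS and 13 higher and 5 lower in DOX1X against PBS. For all 17838 genes tested, the counts were 1071 higher and 1400 lower, and 610 higher and 668 lower, in the same order.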

How the data were processed

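Poly(A) RNA of 11 sorted samples was made into SMART-Seq v4 Plus libraries, which do not mark strand. The authors deposited raw counts of reads per gene as whole numbers. Per the submitters' processing notes, the reads went through STAR 2.7.9a and featureCounts 2.0.1 on GRCm39, with Trim Galore 0.6.6, SAMtools 1.17, FastQC 0.11.5 and MultiQC 1.7. The sources used here do not give the annotation, the strand setting or how reads fitting several genes were counted.

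Counts were analysed with edgeR 4.0.16 (R 4.3.3): genes were kept with filterByExpr (17838 of 24718), libraries were scaled with TMM, and all 11 were fitted with group means. Each pair of groups was compared with the two-sided quasi-likelihood test, its p adjusted over the 17838 genes by Benjamini-Hochberg and called under 0.05. P-values thus measure the spread between mice as the labels number them. The procedure was tested on simulated counts.

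Values in every library are given for each constant region, each member past the threshold, the 5 members with the smallest p of each comparison, the 10 variable segments with the most reads, and the leading segment of each library. Any further member named was picked after its values were known. Members, marker lists and tests were chosen with earlier results of these data known. The replicate numbers were taken to name mice within a group, so the samples were not treated as paired. Deviations from the group means correlated at -0.12 to 0.35 between same-numbered libraries. Differently numbered libraries were not compared, so these values cannot settle whether the numbers pair samples. Alternatives used DESeq2 1.42.0, limma-voom (limma 3.58.1), other scaling factors and filters, the compared groups alone, flow cell or replicate number as a term, and each library left out. Fits within 1 flow cell and without the 2 libraries with Jchain at or near 0 were added after seeing the data. The authors' genome is a later build than the one available here, so no coordinates are given, and sequences and the order of segments come from GENCODE M21 and RefSeq on GRCm38.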

Additional observations from a re-analysis of the deposited data

Results flagged for a closer look

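In groups of 4 libraries, 1 library was set apart from the other 3 by Dixon's test in 19 of 61 groups of values. The values are not independent, since segments share libraries. Many segments were included because they led a library or had the most reads. The usual chance rate of about 1 in 20 therefore does not apply, and the number of flags is only a description. In DOX4X, the outlying libraries were DOX4X 2 for Ighg2c (98.4 CPM), Ighv10-3 (8.95 CPM), Ighv1-64 (21.2 CPM) and Ighv1-82 (15.5 CPM), DOX4X 3 for Ighv10-1 (25.2 CPM), DOX4X 4 for Ighv11-2 (10.4 CPM) and Ighv2-2 (10.5 CPM), and DOX4X 1 for Ighv1-72 (0.440 CPM) and for the effective number of segments (39.3). In PBS, they were PBS 1 for Ighv1-58 (52.1 CPM) and Ighv14-4 (10.3 CPM), PBS 2 for Ighv10-3 (38.9 CPM), and PBS 3 for Ighg2b (82.8 CPM), Ighv1-64 (12.6 CPM), Ighv1-80 (25.0 CPM), Ighv1-82 (10.4 CPM) and Ighv2-2 (8.25 CPM). PBS 3 was also apart for Ighg2c (0.032 CPM) and Ighv1-39 (0.129 CPM), which rest on a few reads. In each of these the outlying library was the highest.

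Ighv5-17 differed between the 2 drug groups, with a log2 fold change of -5.24 for DOX4X against DOX1X, which is the difference between the values against PBS (1.29 for DOX4X and 6.53 for DOX1X). All 4 DOX4X libraries lay below all 3 DOX1X libraries. The groups differ in dose and number of injections, and within flow cell 2, with DOX1X 3 alone, the difference was -4.33 and did not pass (edgeR's adjusted p = 0.0706).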

How the results depend on the processing

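Of 65 alternative counts of called members, 59 stayed within 1.5 times of the reported ones. DESeq2 called 3 members in DOX4X against PBS (Ighg1, Ighv1-75 and Ighv11-2), where it called 590 genes in all. It called 2 members in DOX1X against PBS (Ighv11-2 and Ighv5-17) and 2 in DOX4X against DOX1X (Ighg1 and Ighv5-17). With a library left out, DOX1X against PBS had 1 to 2 calls, the 2 without DOX4X 4, which is in neither group of that comparison. Within flow cell 1 it had 2. No fit within a flow cell was possible for DOX4X against PBS. Within flow cell 2, where DOX1X 3 is assumed to vary like DOX4X, Ighg1 was the 1 member called and Ighv5-17 was lost. Ighv5-17 otherwise kept both calls, with log2 fold changes of 6.25 to 6.83 in DOX1X against PBS and -5.54 to -4.34 in DOX4X against DOX1X (adjusted p at most 0.030 and 0.0081).

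With the replicate number as a block, 0, 2 (Ighv11-2 and Ighv5-17) and 1 members were called in DOX4X against PBS, DOX1X against PBS and DOX4X against DOX1X. Whether the numbers pair samples was not settled.

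Signs of uncalled fold changes were less stable. For Ighm in DOX4X against PBS the value ran from -0.26 to 1.11 with a library left out and was -0.021 without DOX4X 1 and PBS 4. In DOX4X against DOX1X, Ighd ran from -0.47 to 0.55 and Ighv6-3 from -4.33 to 0.052 with a library left out. With flow cell as a term that comparison gave 1.46 for Ighd, 0.46 for Ighv6-3 and 0.31 for Ighv1-72, and within flow cell 2 it gave 1.46, 0.46 and 0.32. The cause was not tested. DOX4X 1 and PBS 4 had 395 and 175 variable reads, which limits the order of segments there.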

Other observations

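Among light chain genes, Iglc1 (the constant region of lambda light chain 1) and its variable partner Iglv1 were higher in every DOX1X library than in any PBS library. The same held for 3.34% of all genes. Iglc1 stood at 5.97, 140, 3.88 and 5.80 CPM in DOX4X, at 131, 65.3 and 41.3 CPM in DOX1X and at 2.14, 11.3 and 3.54 CPM in PBS 2 to 4, with PBS 1 lower than these. Iglv1 stood at 4.05, 88.0, 4.27 and 3.98 CPM in DOX4X, at 77.6, 39.5 and 29.3 CPM in DOX1X and at 1.34, 2.44, 15.4 and 1.57 CPM in PBS. Neither passed the threshold in DOX1X against PBS (log2 fold change 4.09, SE 1.23, edgeR's adjusted p = 0.596 for Iglc1, and 3.24, SE 1.21, 0.615 for Iglv1). For both genes DOX4X 2 lay above every DOX1X library, and the other DOX4X libraries lay below every DOX1X library. Igkc, the kappa constant region, overlapped between DOX1X and PBS, with a log2 fold change of 0.58 (SE 0.82, edgeR's adjusted p = 0.887). These genes were chosen after their values were seen.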
